A study of Mus musculus with 28 samples.

Results

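Lungs of mice that breathed carbon black together with ozone (labelled CB-O3) were set against lungs of mice that breathed ozone alone (labelled O3), after a single exposure day. The comparison holds 8 of the 28 whole-lung mRNA libraries of the series, chosen by their labels, with 4 co-exposure and 4 ozone libraries, and it covers 14887 genes. All animals were wild-type male C57BL/6 mice, an inbred laboratory strain. Their age is given as 8 to 12 weeks in 1 label and as 8 weeks in another. Each exposure lasted 3 hours. The co-exposure group received 10 mg/m3 carbon black, a fine particle of nearly pure carbon, with 2 ppm ozone, and the ozone group received 2 ppm ozone without the particle. The other day 1 groups, carbon black alone (10 mg/m3) and sham, have 4 libraries each, and the day 4 groups, which received 4 exposures, have 3 each. How long after exposure the lungs were taken was not stated in the labels. Nor do they say whether the libraries of a group came from separate animals; the spread behind every p-value is that between libraries, which may be partly technical.

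Ozone is an oxidant gas that reacts with the fluid lining the airways and injures the epithelium at the junction of airways and alveoli. Carbon black particles are taken up mainly by alveolar macrophages, the resident phagocytes of the air space, and inhaled particles can draw neutrophils and monocytes from the blood. Adding the particle to ozone asks whether the lung's response differs from that to the gas alone.

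Totals of estimated counts were 7613928, 6638305, 7274873 and 7289277 in the co-exposure libraries and 5922346, 8383687, 7169431 and 7220335 in the ozone libraries (replicates 1 to 4). Genes that mark lung were high in all of them. Sftpc, a surfactant protein of alveolar type 2 cells, was at 13600 to 18900 CPM (counts per 1000000, scaled by TMM) in co-exposure and 11900 to 13600 CPM in ozone libraries. Ager, of alveolar type 1 cells, was at 2060 to 2620 CPM and 1790 to 2120 CPM. Skeletal muscle genes set replicate 2 of the ozone group apart: Acta1, skeletal muscle actin, stood at 269 CPM there, against 0.0 to 2.85 CPM in the co-exposure libraries and 0.14 to 1.11 CPM in the other ozone libraries; sham replicate 2 had 607 CPM. The summed level of the 14 skeletal muscle genes on the list was 63.0 to 92.2 CPM in co-exposure and 60.6 to 1330 CPM in ozone libraries.

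No gene passed the threshold between co-exposure and ozone alone at day 1. By edgeR's quasi-likelihood test with Benjamini-Hochberg adjustment over all 14887 genes (threshold 0.05), 0 genes were called (0.0%), and the smallest adjusted p was 0.138, for Dtd1. At an unadjusted p under 0.05 there were 2337 genes (15.7%), of which 1214 (8.15%) stood higher and 1123 (7.54%) lower in co-exposure. limma-voom called 0 genes, with 2386 at unadjusted p under 0.05, and DESeq2 called 19 (0.128%), 10 higher (0.0673%) and 9 lower (0.0606%). The 4 co-exposure libraries lay entirely above the 4 ozone libraries for 763 genes (5.13%) and entirely below them for 569 (3.82%), together 1332 (8.95%). The median standard error of a gene's log2 fold change was 0.14, so that the 95% interval of a typical gene reached 0.275 to either side. Without co-exposure replicate 3 the unadjusted count was 1344 genes and without replicate 4 it was 1164. Without ozone replicate 2, the library with muscle RNA, it was 2159, with 0 genes past the threshold.

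The differences followed gene length. Genes with short exons stood higher and genes with long exons lower in co-exposure than in ozone lungs. Exon length here is the union of a gene's annotated exons. For each library, a slope was fitted across genes of its log2 CPM, as the deviation from the mean of the 8 libraries, on log2 exon length; a slope below 0 means that short genes took more of the library. The slopes were -0.0236, 0.0134, -0.065 and -0.109 per doubling of length in co-exposure and 0.0611, 0.0169, 0.029 and 0.077 in ozone libraries. All co-exposure slopes lay below all ozone slopes, with co-exposure replicate 2 and ozone replicate 2 next to each other. The group means were -0.046 ± 0.053 and 0.046 ± 0.028 (SD, n = 4 each), a difference of -0.092, with p = 0.0286 in an exact two-sided permutation test over the 8 libraries. That is the smallest p that 4 against 4 libraries allow, and it came to 0.1 after adjustment over the 7 measures compared per library. With protein-coding genes alone the slope difference was -0.0996 and the exact p 0.0857. On the genomic span in place of exon length it was -0.0463, and with no low-count filter -0.0343, each with an exact p of 0.0286.

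**Figure D1:**
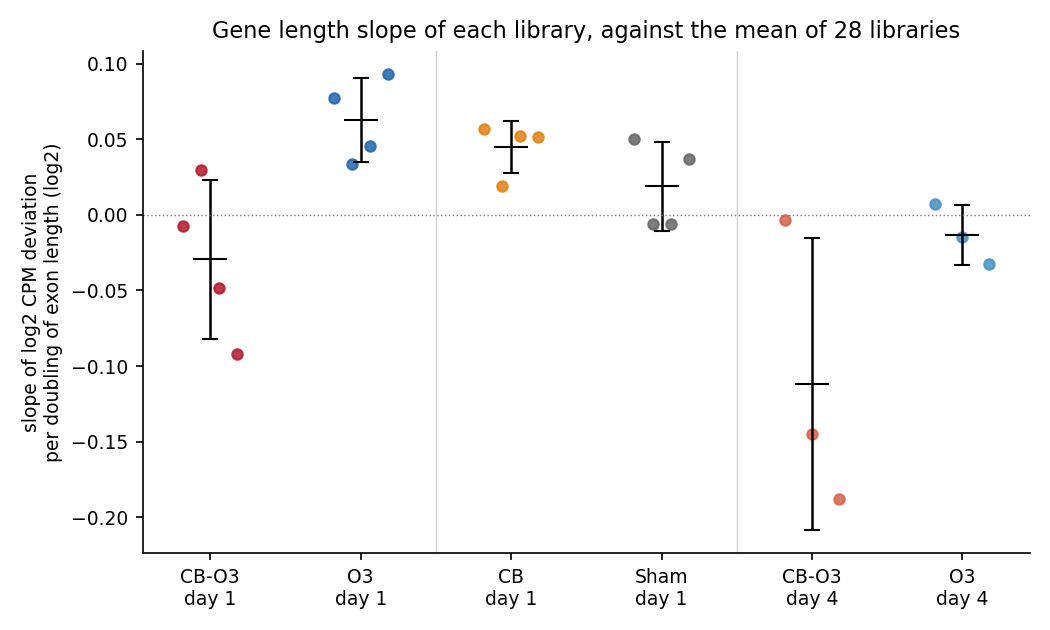
Slope of each library's log2 CPM deviation per doubling of exon length, against the mean of all 28 libraries (vertical axis), for day 1 groups CB-O3, O3, CB and sham and day 4 groups CB-O3 and O3. Points are libraries, and bars the group mean ± SD. The 4 co-exposure libraries of day 1 lie between -0.0921 and 0.0299, below the 4 ozone libraries at 0.0335 to 0.0935.

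Set against the mean of all 28 libraries, the day 1 slopes were -0.0921 to 0.0299 in co-exposure, 0.0335 to 0.0935 in ozone, 0.0191 to 0.0568 in carbon black and -0.00629 to 0.0504 in sham libraries. By group mean, the ozone libraries were highest (0.0625) and the co-exposure libraries lowest (-0.0294) of the day 1 groups, but both ranges overlapped those of carbon black and sham. At day 4, in other libraries, slopes were -0.188 to -0.0034 in co-exposure and -0.0327 to 0.00692 in ozone. Across the 14858 genes with a known length, the fitted log2 fold change was lower for longer genes, with a Spearman rho of -0.403 and a Pearson r of -0.224; genes share libraries and are not independent replicates. With the length of the longest transcript rho was -0.458, with the genomic span -0.376, and with GC content 0.156.

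Divided into deciles of exon length, the shortest genes (105 to 1633 bases) had a median log2 fold change of 0.26, and the longest (9769 to 123179 bases) one of -0.13. The medians in between stepped down in order, through 0.14, 0.09, 0.03, 0.00, -0.01, -0.05, -0.08 and -0.10. In the shortest decile 390 genes (26.2%) stood higher and 21 (1.41%) lower at unadjusted p under 0.05. In the longest decile 15 (1.01%) stood higher and 280 (18.8%) lower. By library, the shortest decile's median deviation was 0.0551, -0.00194, 0.202 and 0.285 in co-exposure and -0.159, -0.0906, -0.0836 and -0.124 in ozone libraries. Co-exposure replicates 3 and 4 were thus farthest from the ozone libraries, and replicate 2 nearest.

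**Figure D2:**
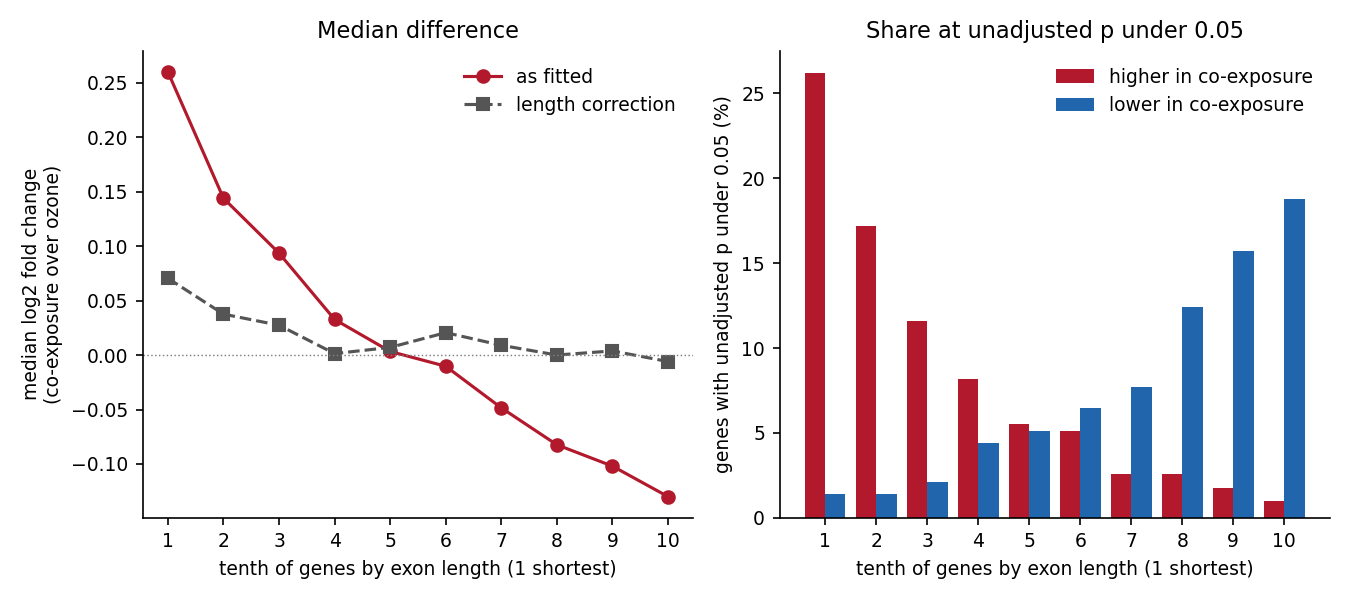
Left, median log2 fold change of co-exposure over ozone at day 1 (vertical axis) in deciles of exon length (horizontal axis, shortest first), as fitted and after a per-library length correction. Right, percent of each decile's genes at unadjusted p under 0.05, higher or lower in co-exposure. The median steps down from 0.26 to -0.13 as fitted, and lies between -0.00595 and 0.0705 after correction.

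A correction that fitted each library's length trend with a smooth curve and removed it left the decile medians between -0.00595 and 0.0705. It left 0 genes past the threshold and 1557 (10.5%) at unadjusted p under 0.05, of which 903 (6.08%) stood higher and 654 (4.4%) lower. A smooth curve removes any true difference that runs with length together with a technical one. The counts below are as fitted, with those after correction given where they differ. Counts as fitted are read against 8.15% higher and 7.54% lower over all genes tested. Counts after correction are read against 6.08% higher and 4.4% lower. Of the 772 genes tested from the 52 lists of pathways and cell types, 0 passed the threshold. Single members named below, other than Krt8, Gclc, Nqo1, Hmox1, Timp1, S100a8, Gzma, Cd68, Sftpc and Scgb1a1, were therefore chosen after their values were seen, mostly as those with the smallest p in their list. In a homogenate, fewer cells of a type and less RNA per cell cannot be told apart.

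Genes of the ribosome and of respiration, whose median exon lengths were 1782 and 1423 bases against 4319 for all genes tested, stood higher in co-exposure. All 26 ribosomal protein genes, which build the translating ribosome, had a log2 fold change above 0, with a median of 0.33. At unadjusted p under 0.05, 19 were higher and 0 lower. For 20 the co-exposure libraries lay entirely above the ozone libraries, beside 5.13% of all genes tested. In the decile of 1634 to 2355 bases, which holds the list's median length, these shares were 17.2% higher by p and 10.9% without overlap. Rpl11, of the large subunit, was at 261, 282, 299 and 321 CPM in co-exposure and 240, 232, 227 and 251 CPM in ozone libraries, a log2 fold change of 0.29 ± 0.07 (SE; adjusted p = 0.196; DESeq2 0.0181). Rps13, of the small subunit, which is not among the 26 and was chosen after its values were seen because DESeq2 called it, was at 225, 258, 302 and 306 CPM in co-exposure and 173, 188, 196 and 200 CPM in ozone libraries, or 0.53 ± 0.13 (adjusted p = 0.196). For both genes all 4 co-exposure libraries were above all ozone libraries, replicates 3 and 4 most. All ribosomal protein genes of the table, in the list or not, together took 2.41, 2.41, 2.71 and 2.73% of all counts in co-exposure and 2.06, 2.13, 2.15 and 2.14% in ozone libraries (exact permutation p = 0.0286, or 0.1 adjusted over the 7 measures). With length correction the list's median was 0.20, with 11 genes higher and 0 lower at unadjusted p under 0.05.

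The 26 nuclear genes of the respiratory chain, whose proteins form the complexes of oxidative phosphorylation, had a median of 0.33, with 19 higher and 0 lower. Uqcrh, a subunit of complex III, was at 112, 126, 139 and 153 CPM in co-exposure and 89.1, 99.6, 97.6 and 107 CPM in ozone libraries (log2 fold change 0.43 ± 0.13, adjusted p = 0.196). The groups did not overlap. After length correction the list had a median of 0.16, with 11 higher. The 23 proteasome genes, longer as a group (median exon length 2649 bases, against 1423 for the respiratory chain), had a median of 0.17 with 9 higher, and 0.11 with 8 higher after correction. Psmb6, a catalytic subunit, was at 91.3, 85.8, 101 and 109 CPM against 68.2, 71.4, 73.9 and 74.6 CPM in ozone libraries. The 13 protein genes of the mitochondrial genome had a median of 0.39, but 0 passed an unadjusted p of 0.05. The share of counts in all mitochondrially encoded genes spread widely in co-exposure, at 2.34, 1.6, 3.07 and 3.75%, against 2.24, 2.4, 2.13 and 1.94% in ozone libraries (exact permutation p = 0.343). Chromatin regulators with long transcripts, 24 genes with a median exon length of 19590 bases, had a median of -0.05 with 0 higher and 1 lower as fitted, and of 0.07 with 4 higher and 0 lower after correction.

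**Figure D3:**
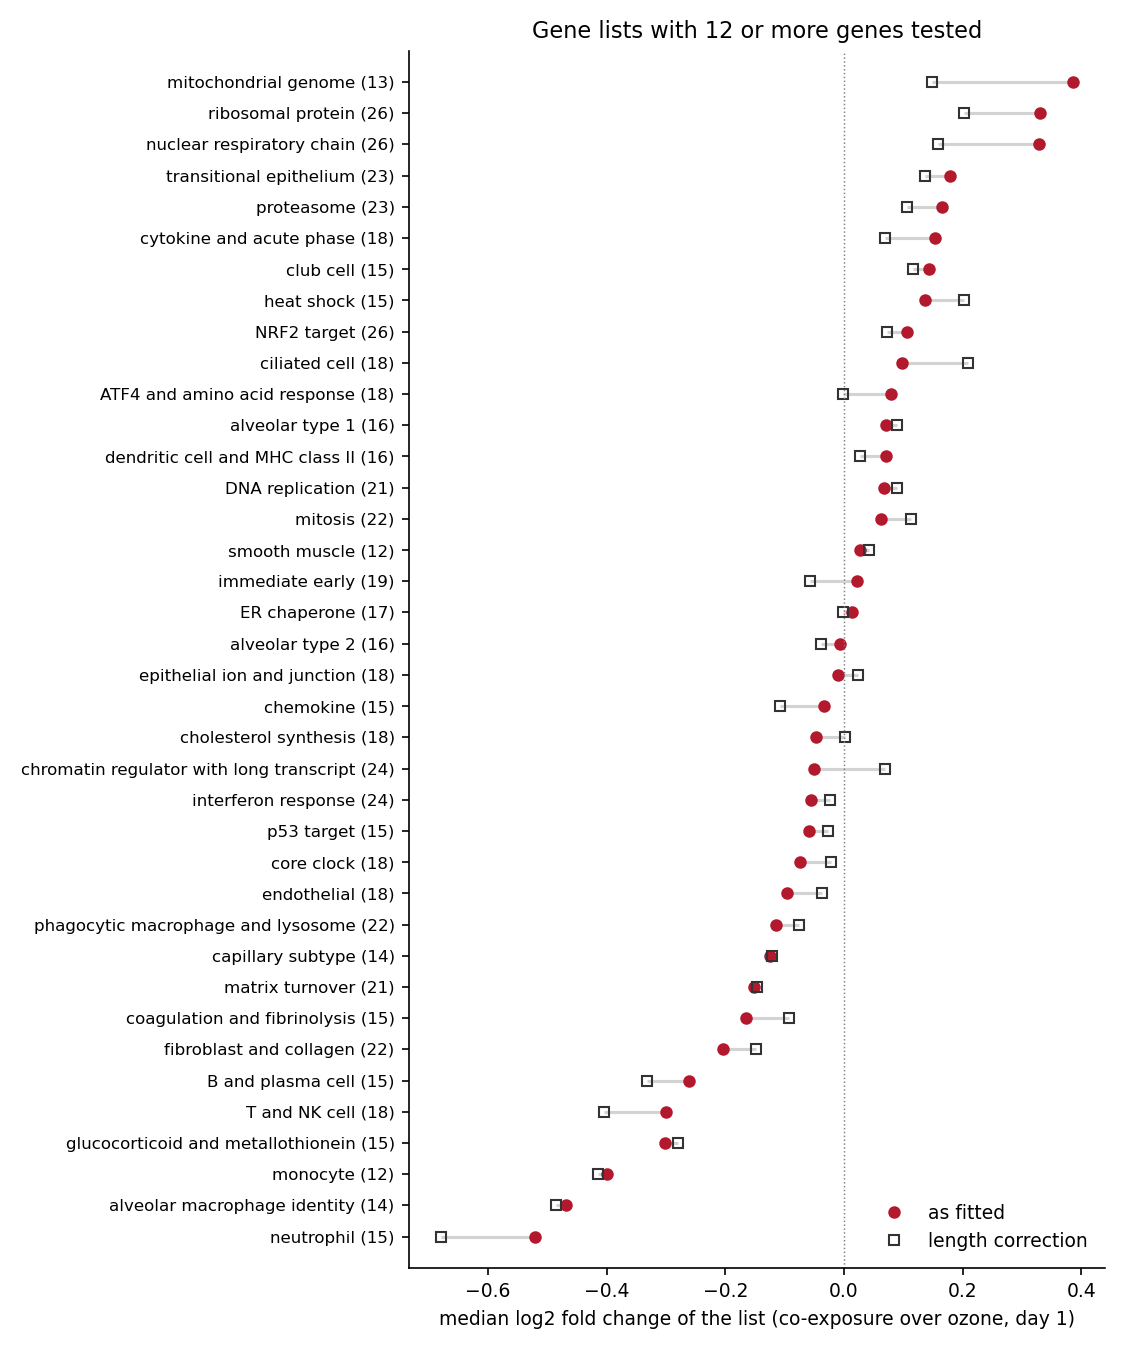
Median log2 fold change of co-exposure over ozone at day 1 (horizontal axis) for each gene list with 12 or more genes tested (number in brackets), as fitted (filled circles) and after length correction (open squares); the skeletal and cardiac muscle lists are not drawn. Ribosomal, respiratory chain and mitochondrial lists move toward 0 with the correction, and the alveolar macrophage list stays at -0.47 and -0.48.

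Alveolar macrophage genes stood lower in co-exposure, and length correction left the list's median nearly where it was. Of the 14 genes of alveolar macrophage identity, 13 had a log2 fold change below 0, with a median of -0.47. At unadjusted p under 0.05, 6 stood lower (Mrc1, Siglecf, Ear2, Itgax, Abcg1 and Chil3) and 0 higher. With length correction the median was -0.48, again with 6 lower. The list's summed level was 1240, 1300, 959 and 846 CPM in co-exposure and 1350, 1550, 1450 and 1560 CPM in ozone libraries, so the groups did not overlap, and co-exposure replicates 3 and 4 were lowest. Those are also the libraries with the steepest length slopes.

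Mrc1 (the mannose receptor CD206, ENSMUSG00000026712, mm10 chromosome 2, 14229392 to 14332057, plus strand) was at 62.9, 77.1, 54.5 and 50.3 CPM in co-exposure and 91.6, 110, 106 and 112 CPM in ozone libraries. Every co-exposure library was below every ozone library, and the log2 fold change was -0.78 ± 0.17 (SE). The adjusted p was 0.164 in edgeR, 0.0113 in DESeq2. Siglecf, a sialic acid receptor of alveolar macrophages and eosinophils (ENSMUSG00000039013, chromosome 7, 43351341 to 43359531, plus strand), was at 9.32, 6.36, 5.64 and 5.27 CPM in co-exposure and 9.62, 15.8, 13.8 and 9.67 CPM in ozone libraries. Its groups did not overlap, but co-exposure replicate 1 nearly reached the lowest ozone libraries, and the log2 fold change was -0.88 ± 0.22 (adjusted p = 0.196). Adgre1, which encodes the macrophage surface protein F4/80 (ENSMUSG00000004730, chromosome 17, 57358691 to 57483527, plus strand), is not on the alveolar macrophage list and was chosen after its values were seen. It was at 12.3, 12.7, 8.46 and 5.98 CPM in co-exposure and 14.7, 21.9, 22.0 and 19.8 CPM in ozone libraries, or -0.99 ± 0.23 (adjusted p = 0.19). Ear2, a ribonuclease of alveolar macrophages and on their list, was at 43.6, 48.0, 36.0 and 33.5 CPM in co-exposure and 53.7, 60.4, 60.7 and 55.4 CPM in ozone libraries. With a short transcript of 719 bases, it stood against the length trend.

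**Figure D4:**
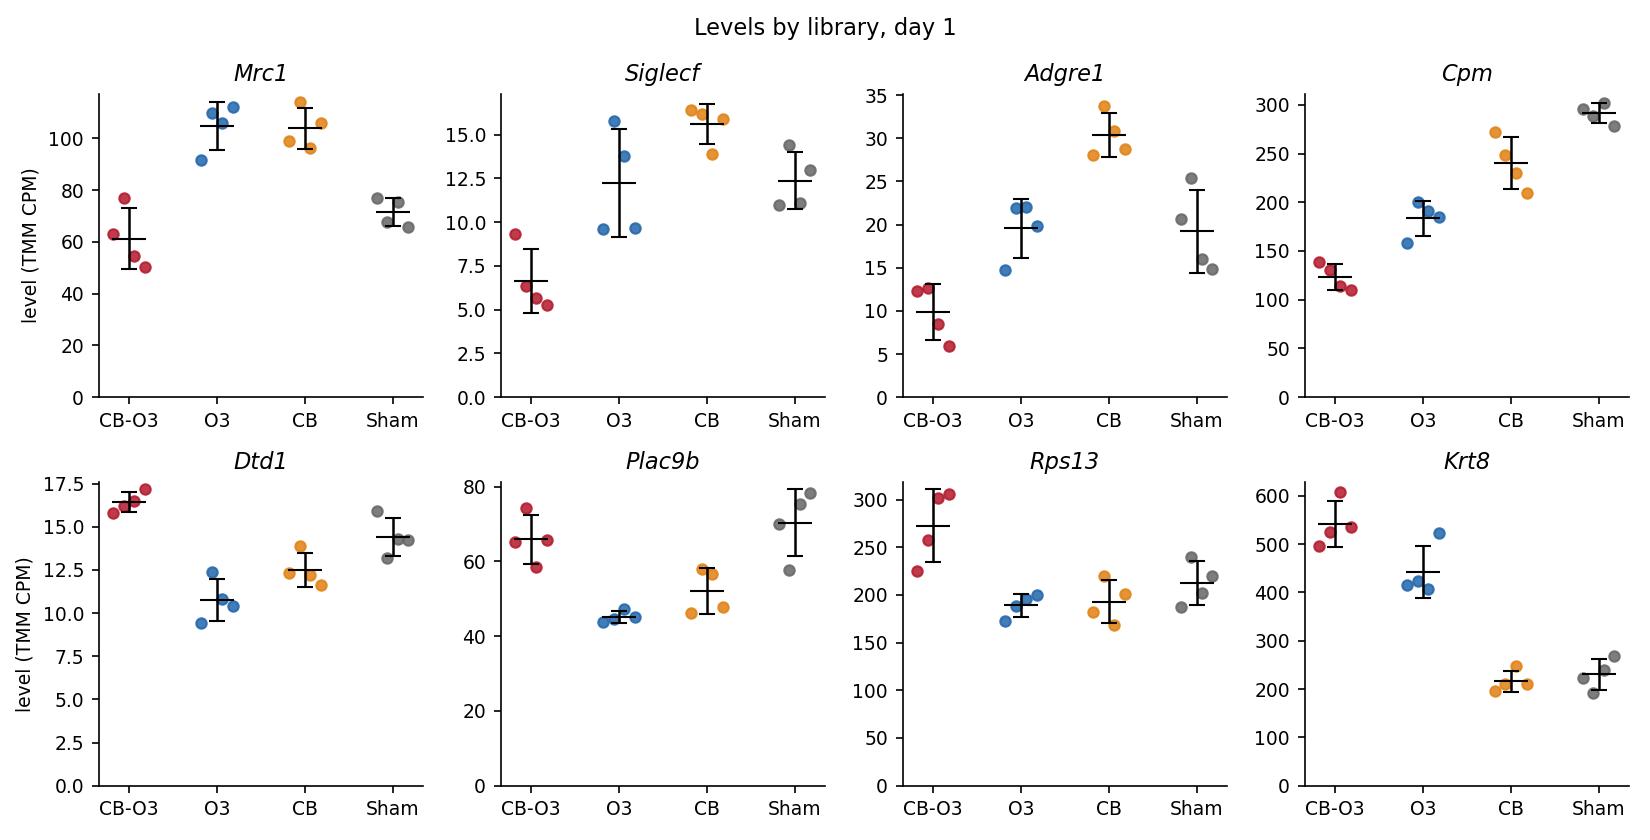
Levels in TMM-scaled CPM (vertical axis, from 0) of 8 genes in the day 1 libraries of the CB-O3, O3, CB and sham groups; points are libraries and bars the mean ± SD (n = 4). Mrc1, Siglecf, Adgre1 and Cpm are lower in all co-exposure libraries than in any ozone library, while Krt8 overlaps, with ozone replicate 4 at 523 CPM.

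Phagocyte genes were not uniformly low. Of 22 genes of phagocytosis and the lysosome, 6 stood lower and 3 higher at unadjusted p under 0.05, with a median of -0.11. After correction 5 stood lower and 3 higher, with a median of -0.08. Atp6v0d2, a subunit of the proton pump that acidifies lysosomes, was at 44.8, 48.5, 36.0 and 31.3 CPM in co-exposure and 55.2, 61.6, 56.2 and 68.4 CPM in ozone libraries. Cd68, a lysosomal glycoprotein of macrophages, was at 35.8, 36.8, 29.5 and 27.1 CPM against 36.9, 43.4, 44.0 and 44.0 CPM in ozone libraries, with no overlap, although co-exposure replicate 2 nearly reached ozone replicate 1. Cd63, a tetraspanin of late endosomes found in many cell types, lay the other way, at 215, 233, 290 and 290 CPM in co-exposure and 180, 183, 185 and 218 CPM in ozone libraries, where ozone replicate 4 overlapped.

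The monocyte, neutrophil, T and NK cell, and B and plasma cell lists had medians below 0, with few genes at an unadjusted p under 0.05. The dendritic cell and MHC class II list did not, with a median of 0.07 and 11 of 16 genes above 0. All 12 monocyte genes were below 0 (median -0.40), with 1 lower, Chil3, which is also on the alveolar macrophage list. The 15 neutrophil genes had a median of -0.52, with 1 lower, Cxcr1. Their summed level leaned the other way, with overlap. It was 833 to 1080 CPM (median 939) in co-exposure and 675 to 1170 CPM (median 758) in ozone libraries. By median, the monocyte sum was lower in co-exposure, at 1720 against 2140 CPM, and the T and NK sum at 70.7 against 79.3 CPM. S100a8, a subunit of calprotectin, was at 9.32, 6.97, 3.81 and 4.13 CPM in co-exposure and 7.59, 10.3, 10.5 and 6.31 CPM in ozone libraries. The 18 T and NK cell genes had a median of -0.30, with 4 lower: Il7r, Klrb1c, Gzma and Prf1. Gzma, a granule protease of cytotoxic lymphocytes, was at 5.12, 5.3, 3.39 and 5.41 CPM in co-exposure and 6.24, 6.96, 8.03 and 7.01 CPM in ozone libraries. After length correction the T and NK median was -0.40 with 4 lower. The 15 B and plasma cell genes summed to 636 to 888 CPM in co-exposure and 677 to 875 CPM in ozone libraries. Their median log2 fold change was -0.26, with 1 lower, Cd22. Igha, the heavy chain of IgA antibody made by plasma cells, which is not on that list and was chosen after its values were seen, lay the other way, at 13.3, 22.7, 11.1 and 7.12 CPM in co-exposure and 2.02, 1.06, 2.77 and 3.5 CPM in ozone libraries. Its log2 fold change of 2.54 ± 0.49 (adjusted p = 0.164) came with sham libraries at 3.31 to 7.67 CPM, and estimated counts of immunoglobulin segments are uncertain where near-identical copies share reads.

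Epithelial injury genes and targets of the oxidant response stood level or slightly higher in co-exposure. Of 23 genes of the transitional epithelial state, which appears as alveolar type 2 cells turn into type 1 cells after injury, 6 stood higher and 0 lower (median 0.18, and 0.14 with 5 higher after correction). Krt8, a keratin of that state, was at 497, 525, 608 and 536 CPM in co-exposure and 415, 424, 408 and 523 CPM in ozone libraries, against 192 to 269 CPM in sham. Its log2 fold change was 0.29 ± 0.13 (adjusted p = 0.28), and 0.17 with length correction. Sfn, the 14-3-3 sigma protein of stressed epithelium, was at 71.0, 70.5, 91.4 and 79.4 CPM in co-exposure and 56.7, 50.6, 46.9 and 63.6 CPM in ozone libraries, without overlap (log2 fold change 0.52 ± 0.15, adjusted p = 0.196). Timp1, an inhibitor of matrix proteases, was at 34.8, 72.4, 56.3 and 45.7 CPM against 41.8, 22.1, 32.2 and 48.9 CPM in ozone libraries, which overlapped (0.53 ± 0.23, adjusted p = 0.279).

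Of 26 targets of NRF2, the factor that switches on antioxidant genes, 4 stood higher and 0 lower at unadjusted p under 0.05 (median 0.11). With length correction 1 stood higher. Gclc, which makes the rate-limiting subunit of glutathione synthesis, was at 450, 493, 568 and 407 CPM in co-exposure and 462, 447, 465 and 438 CPM in ozone libraries, against 189 to 231 CPM in sham. The groups overlapped, with a log2 fold change of 0.08 ± 0.11 (adjusted p = 0.742). Nqo1, a quinone reductase, differed by 0.09 ± 0.26 and Hmox1, heme oxygenase 1, by 0.13 ± 0.09, and both turned to values just below 0 with length correction. Gstp1, a glutathione transferase, was at 159, 158, 201 and 202 CPM in co-exposure and 133, 145, 137 and 139 CPM in ozone libraries, without overlap (0.38 ± 0.09, adjusted p = 0.196; DESeq2 0.0367), and at 0.22 after correction.

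Among 15 glucocorticoid and metallothionein genes, induced by stress hormones and metals, 4 stood lower and 0 higher (median -0.30), and 2 lower after length correction (median -0.28). Fkbp5, a cochaperone of the glucocorticoid receptor, was at 63.2, 73.8, 74.6 and 54.9 CPM in co-exposure and 107, 81.4, 77.1 and 143 CPM in ozone libraries, with ozone replicates 1 and 4 far above the others. Of 22 fibroblast and collagen genes, 4 stood lower and 0 higher (median -0.20). With length correction 2 stood lower; their median exon length was 7242 bases. Of 15 club cell genes 3 stood higher and 1 lower, and after length correction 0 higher and 1 lower. Scgb1a1, the secretoglobin of club cells, was at 34800, 27700, 44800 and 53100 CPM in co-exposure and 26200, 34400, 28500 and 23600 CPM in ozone libraries, which overlapped. Of 16 alveolar type 1 genes, 4 stood higher and 0 lower, and after correction 1 higher. Of 16 alveolar type 2 genes, 3 stood higher and 1 lower, and after correction 1 higher and 0 lower. DNA replication (21 genes, median 0.07), mitosis (22 genes, 0.06), dendritic cell and MHC class II (16 genes, 0.07) and endothelial genes (18 genes, -0.10) had 1, 0, 0 and 0 members at unadjusted p under 0.05, and interferon response genes (24 genes, -0.06) had 2, both lower; after correction DNA replication had 0 and interferon response 1. Of 15 heat shock genes 2 stood higher and 0 lower, and after correction 0 higher. All 15 had a log2 fold change above 0 as fitted, and their median was 0.14, and 0.20 after correction.

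The rule for single genes, which asked for an adjusted p under 0.05, named none in this comparison. The genes in the next sentences were chosen after their values were seen, as those with the smallest p and no overlap of the libraries. Dtd1, an enzyme that removes D-amino acids from tRNA (ENSMUSG00000027430, chromosome 2, 144599897 to 144768758, plus strand), was at 15.8, 16.2, 16.5 and 17.2 CPM in co-exposure and 9.45, 12.4, 10.8 and 10.4 CPM in ozone libraries, a log2 fold change of 0.61 ± 0.11. Sham libraries were at 13.2 to 15.9 CPM. Plac9b was at 65.1, 74.4, 58.4 and 65.8 CPM in co-exposure and 43.7, 44.5, 47.3 and 45.1 CPM in ozone libraries, against 57.8 to 78.4 CPM in sham. Its near copy Plac9a, with which it may share reads, was at 21.0 to 25.5 CPM and 8.38 to 12.9 CPM. For Dtd1 and Plac9b the sham range overlapped the co-exposure libraries and lay above all ozone libraries.

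Among genes that stood lower, Cpm, which encodes carboxypeptidase M of the cell surface (ENSMUSG00000020183, chromosome 10, 117629500 to 117687352, plus strand), was at 139, 130, 114 and 110 CPM in co-exposure and 158, 200, 191 and 185 CPM in ozone libraries. Sham libraries were higher than both, at 278 to 302 CPM. The log2 fold change was -0.58 ± 0.12 (adjusted p = 0.164; DESeq2 0.0113), and -0.51 with length correction. Klf11, a zinc finger repressor, was at 28.4, 24.2, 21.6 and 28.8 CPM in co-exposure and 37.1, 37.4, 47.9 and 37.6 CPM in ozone libraries, with sham at 44.9 to 57.8 CPM. Plcg2, a phospholipase of leukocyte signalling, was at 15.2, 14.4, 11.7 and 10.7 CPM against 21.1, 25.8, 25.2 and 19.8 CPM in ozone libraries. Cpt1a, which carries fatty acids into mitochondria, was at 85.5, 117, 102 and 87.9 CPM against 161, 126, 130 and 139 CPM. The genes DESeq2 called were Smagp, Cdk2ap1, Plac9b, Cystm1, Aurkaip1, Smdt1, Rpl11, Gstp1, Rps13 and Gja5, all higher, and Cpm, Klf11, Plcg2, Mrc1, Cpt1a, Frmd4a, Dock10, Mpdz and Add3, all lower.

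Adding the particle to ozone differed from adding it to sham exposure in 218 genes (1.46% of those tested). This was tested as the interaction, the co-exposure minus ozone difference less the carbon black minus sham difference, on the log2 scale. The value was below 0 for 185 genes (1.24%) and above 0 for 33 (0.222%). The split differed with other fits: DESeq2 gave 385 below and 163 above 0, and a fit of the compared groups alone 428 below and 470 above. All 185 had a carbon black minus sham difference above 0 (median 0.78), and 182 a co-exposure minus ozone difference below 0 (median -0.43). Among them 125 also passed the threshold as higher after carbon black alone, where 247 genes passed in all (1.66%). That count of 247 was 75 and 89 without carbon black replicates 3 and 4, 114, 101 and 105 without sham replicates 1, 3 and 4, and 7 when carbon black and sham libraries were fitted alone. The choice by interaction favours such opposite signs. The 33 others had a median exon length of 1548 bases, against 5024 for the 185 and 4319 for all genes tested. With length correction 138 genes passed (0.929%), of which 128 were among the 218.

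**Figure D5:**
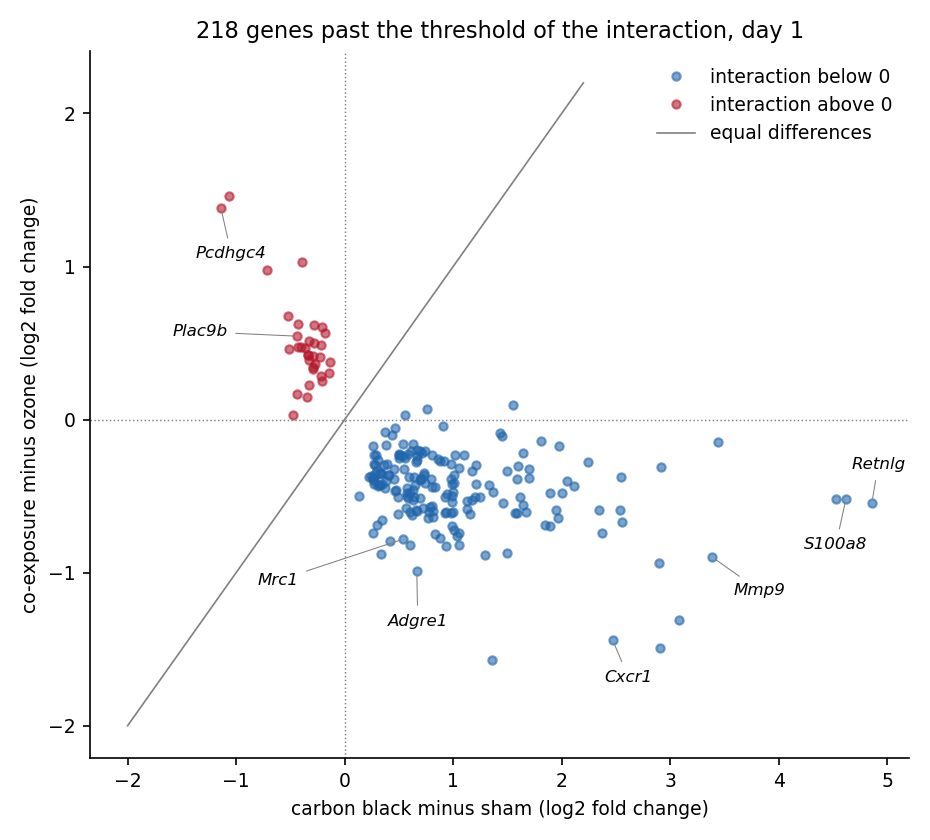
The 218 genes past the threshold of the interaction at day 1, by carbon black minus sham (horizontal axis) and co-exposure minus ozone (vertical axis), both log2 fold changes; the grey line marks equal differences. The 185 genes with an interaction below 0 lie right of 0, most of them below 0 on the vertical axis, with Retnlg and S100a8 farthest right.

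Genes of macrophages, monocytes and neutrophils were among them: 14 of the 185 are on the 3 lists of those cells. By list these were 5 of 14 alveolar macrophage, 3 of 12 monocyte and 7 of 15 neutrophil genes, beside 1.24% of all genes tested. Chil3 is on both the alveolar macrophage and the monocyte list. Lists of other blood cells differed too. Of 10 platelet genes, 6 passed the threshold as higher after carbon black alone and 1 passed with an interaction below 0; their summed level was 121 to 196 CPM in carbon black and 57.5 to 75.4 CPM in sham libraries, without overlap, and 55.5 to 74.8 CPM in co-exposure and 45.5 to 68.8 CPM in ozone libraries. Of 10 erythrocyte genes, 4 passed as higher after carbon black alone and 2 with an interaction below 0; their summed level was 9040 to 31100 CPM in carbon black and 9760 to 12800 CPM in sham libraries, with overlap. The part of blood content in the interaction was not tested. The rule named Retnlg, S100a8 and S100a9, genes of neutrophils, as the lowest, at -5.4, -5.14 and -5.05 (adjusted p 0.0225, 0.0407 and 0.04). S100a8 was at 284, 28, 1360 and 721 CPM in carbon black and 6.88, 57.1, 15.1 and 19.0 CPM in sham libraries, so that carbon black replicate 2 lay within the sham range. Both groups with ozone stayed at 10.5 CPM or less. The call for S100a8 was lost in 17 of 30 alternatives, among them limma-voom, no low-count filter, a fit of the compared groups alone, and the leaving out of any of 11 libraries, namely co-exposure replicates 3 and 4, carbon black replicates 3 and 4, ozone replicates 1 to 4 and sham replicates 1, 3 and 4, with the adjusted p reaching 0.167. The call for S100a9 was lost in the same alternatives. The call for Retnlg was lost in 9 of 30, among them limma-voom, a fit of the compared groups alone, and those without co-exposure replicate 3 or 4, ozone replicate 2 or 3 or sham replicate 3 or 4, with the adjusted p reaching 0.225. The rule also named Pcdhgc4, a protocadherin, at 2.52, Plac9a at 1.42 and Dctpp1, a nucleotide pyrophosphatase, at 1.05. The call for Pcdhgc4 was lost without co-exposure replicate 3 or 4 (adjusted p 0.0518 and 0.0598). The call for Dctpp1 was lost in 10 of 30 alternatives, with all length corrections and without co-exposure replicate 4, ozone replicate 1 or 2, carbon black replicate 3 or sham replicate 1 or 4 (adjusted p up to 0.164). The call for Plac9a was lost in 5, of which 3 were length corrections and the others left out ozone replicate 2 or sham replicate 3 (adjusted p up to 0.0712). Reads of the clustered protocadherins can be split among isoforms that share exons.

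Of 29 genes followed through up to 30 alternatives, 8 passed the threshold of the interaction in every alternative that gave a value: Mrc1, Adgre1, Plcg2, Atp6v0d2, Ccl6, Ccl9, Cxcr1 and Plac9b. All 29 had passed it as fitted. Most were chosen after their co-exposure minus ozone values, a part of the interaction, were seen. Genes with a smaller adjusted p, such as Plek, Cytip and Gda (0.00863 each), were not followed. The alternatives refit the same libraries, so the 8 are no independent support. Mrc1 had an interaction of -1.32 ± 0.24 (adjusted p = 0.0104). It was at 98.9, 114, 96.4 and 106 CPM in carbon black and 77.0, 67.8, 75.3 and 65.9 CPM in sham libraries. It thus stood higher with the particle alone than in sham, and lower with the particle in ozone than in ozone alone. Neither difference passed the threshold by itself (carbon black minus sham 0.54, adjusted p = 0.133 in edgeR). Adgre1 had an interaction of -1.66 ± 0.32 (adjusted p = 0.011), with 28.1, 33.8, 30.9 and 28.8 CPM in carbon black and 14.8 to 25.4 CPM in sham libraries. Its carbon black minus sham difference of 0.665 did not pass either (adjusted p = 0.161). Ccl6, a chemokine of myeloid cells, had one of -1.41 ± 0.27 (adjusted p = 0.011), with 133, 141, 111 and 81.8 CPM in co-exposure and 161, 195, 185 and 186 CPM in ozone libraries. In carbon black it was at 264, 281, 309 and 304 CPM, above all sham libraries (133 to 201 CPM). Cxcr1, a receptor for neutrophil chemokines, rested on few counts, at 0.131 to 0.427 CPM in co-exposure and 0.472 to 0.844 CPM in ozone libraries.

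The size of the interaction count depended on single libraries. Leaving out co-exposure replicate 2 gave 471 genes, replicate 3 gave 71 and replicate 4 gave 56. Without ozone replicates 1, 2, 3 and 4 it was 137, 86, 132 and 141. Without carbon black replicates 2, 3 and 4 it was 387, 90 and 89, and without sham replicates 1, 2, 3 and 4 it was 129, 343, 82 and 76. Without co-exposure replicate 1 it was 311, and carbon black replicate 1 moved it least (225).

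The same comparison in the day 4 libraries, after 4 exposures, also gave 0 genes past the threshold in edgeR, with 2991 (20.1%) at unadjusted p under 0.05 and a smallest adjusted p of 0.0562. DESeq2 called 472 genes there (3.18%) and limma-voom 103 (0.692%), edgeR with a stricter low-count filter called 28, and without co-exposure replicate 1 of day 4 edgeR called 2769. The test of the difference between the days called 0 genes by edgeR, DESeq2 and limma-voom, with 559 (3.75%), 536 (3.61%) and 523 (3.51%) at unadjusted p under 0.05. Without the same library edgeR called 1 gene. The slope across genes of the day 4 fold change on log2 exon length was -0.11, beside -0.0918 at day 1. Ribosomal protein genes had a day 4 median of 0.34 with 19 higher, and respiratory chain genes one of 0.43 with 23 higher and 0 lower, read against 10.3% of all genes higher. Alveolar macrophage genes had a median of -0.23 with 0 higher and 5 lower, against 9.8% of all genes lower. T and NK cell genes kept a median below 0, at -0.36 with 0 higher and 3 lower. Other lists changed sign between the days. Neutrophil genes had a day 4 median of 0.52 with 0 higher and 0 lower, and monocyte genes one of 0.12 with 1 higher and 1 lower. Glucocorticoid and metallothionein genes had one of 0.11 with 3 higher and 1 lower. Alveolar type 1 genes went from 0.07 to -0.12, with 0 higher and 3 lower. Mrc1 stood at -0.41, Siglecf at -0.53 and Ear2 at -0.49 at day 4, and Dtd1 at 0.05.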

How the data were processed

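Estimated counts per gene were deposited for 28 whole-lung poly(A) RNA libraries, quantified by the authors with Salmon 1.1.0 per the labels; mm10, R 3.6.3 and DESeq2 are named in the submitters' processing notes, without their roles. Of the deposited values 17.72% were not whole and were rounded. Counts estimated this way are uncertain between near-identical genes.

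Of 35880 genes, 11803 had no count, and filterByExpr kept 14887 with 99.9% of the counts. edgeR 4.0.16 (R 4.3.3) fitted all 28 libraries with a mean per group (TMM factors 0.902 to 1.05, 20 residual degrees of freedom, biological coefficient of variation 15.7%), with a robust quasi-likelihood F test, Benjamini-Hochberg adjustment over all genes tested and a threshold of 0.05. Totals were 5135443 to 9718682 counts per library, so that a floor of 3 counts is 0.309 to 0.584 CPM; floors cover counting error only. DESeq2 1.42.0 and limma 3.58.1 (voom) were alternatives. Exon length, GC and coordinates came from GENCODE M21 on the mm10 assembly, matched for 35505 genes by identifier. The length correction is a natural spline on log2 exon length with 4 degrees of freedom per library, used as an offset. Scripts were tested on simulated data.

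Groups came from the labels. The comparison, its gene lists and tests were chosen with earlier results of these data known. The rule for single genes took, among genes past the threshold without overlap of libraries and with a mean of at least 2 CPM in the higher group, the largest differences, up to 3 members of each list, and 3 in each direction for the interaction, plus genes printed whether or not they passed. Lists are described by counts and medians, with no set test.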

Additional observations from a re-analysis of the deposited data

Results flagged for a closer look

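Among 232 groups of 4 libraries, one per named gene and group, 16 held a library far from the other 3 by Dixon's criterion, against about 1 in 20 by chance. The count is near that share. The groups share libraries and are not independent, and muscle genes of the same libraries are among the 16. In the ozone group, replicate 4 stood apart for Krt8 (523 CPM, the others 408 to 424), Mpdz (51.1, the others 47.7 to 48.3), Cd63 (218, the others 180 to 185), Cry2 (61.1, the others 81.1 to 83.2) and Nkx2-1 (182, the others 209 to 214). Replicate 1 stood apart for Cd68 (36.9 CPM, the others 43.4 to 44.0) and replicate 3 for Klf11 (47.9, the others 37.1 to 37.6). In the co-exposure group, replicate 3 stood apart for Gzma (3.39 CPM, the others 5.12 to 5.41), Frmd4a (53.2, the others 64.8 to 67.1), Retnlg (2.82, the others 5.84 to 6.43) and Taldo1 (228, the others 188 to 193). Muscle genes set apart co-exposure replicate 4, at 0.427 CPM for Myh2 and 2.85 for Acta1, and ozone replicate 2, at 316 CPM for Myh1, 142 for Myh2 and 269 for Acta1.

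Adding the particle differed with and without ozone in 218 genes by the interaction test of edgeR at an adjusted p under 0.05. Among genes followed, the log2 interaction above 0 was Pcdhgc4 2.52, Plac9a 1.42, Dctpp1 1.05, Plac9b 0.983, Mtln 0.904, Dtd1 0.814, Smagp 0.74, Ier3 0.71, Aurkaip1 0.707, Jund 0.638 and Gstp1 0.513. The log2 interaction below 0 was Retnlg -5.4, S100a8 -5.14, S100a9 -5.05, Cxcr1 -3.91, Fkbp5 -1.78, Adgre1 -1.66, Ccl9 -1.47, Gpnmb -1.43, Plcg2 -1.42, Ccl6 -1.41, Chil3 -1.41, Mrc1 -1.32, Atp6v0d2 -1.25, Siglecf -1.22, Cd68 -1.09, Slco2b1 -1.01, Trp53inp1 -0.816 and Frmd4a -0.634.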

How the results depend on the processing

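Between co-exposure and ozone at day 1, 0 genes passed in edgeR under all alternatives run, while DESeq2 called 19. The slope difference on gene length was -0.112 to -0.0711 when each library was left out, and -0.0996 (exact p 0.0857) with protein-coding genes alone, -0.0463 on genomic span and -0.0343 with no low-count filter; leaving out a library allows no exact p under 0.0571. The interaction, 218 genes as reported, was 548 with DESeq2 (163 above and 385 below 0), 898 with only the compared groups (470 above and 428 below), 138 with length correction, 131 with length taken from the longest transcript (added after seeing the data), 143 with length and GC correction, 120 with the replicate block and length correction, and 56 to 471 when each library was left out. At day 4, 0 genes as reported, the count was 472 with DESeq2, 103 with limma-voom, 177 with the replicate block, 101 with the block and GC correction, 28 with a stricter filter, and 0 to 2769 when each library was left out. The difference between days gave 0 to 1 gene when each library was left out. Carbon black against sham, 247 genes as reported, gave 7 with only the compared groups and 75 to 357 when each library was left out. The causes were not tested.

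Labels give the groups the same replicate numbers. Deviations of same-numbered co-exposure and ozone libraries correlated at -0.0581, -0.0985, -0.00599 and -0.228 at day 1 and at 0.0227, 0.0605 and 0.0219 at day 4, and those of carbon black and sham at -0.014, 0.19, 0.0861 and 0.0601. In none of these comparisons was every correlation over 0.1. Those of ozone and sham at day 1 were higher, at 0.0471, 0.361, 0.192 and 0.102. Over all 28 pairs of groups, every correlation was over 0.1 for 1, co-exposure and sham at day 4 (0.321, 0.159 and 0.246). The median over all same-numbered pairs was 0.0104, against -0.00502 for other pairs, so the numbers were not taken to pair samples. With the replicate block 0 genes passed at day 1 and 2498 had an unadjusted p under 0.05; the day 4 count of 177 is given above.

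The log2 fold changes of single genes turned sign 15 times. Nqo1 was -0.0578 with length correction, -0.0446 with length and GC, -0.043 on the longest transcript and -0.0628 with the block and length. Hmox1 was -0.00672, -0.00571 on the longest transcript and -0.00966 with the block and length. Lcn2 was -0.0553 on the longest transcript. When each library was left out, Gclc ranged from -0.011 to 0.152, Lcn2 from -0.00422 to 0.248, Mki67 from -0.0504 to 0.507 (-0.0463 without co-exposure replicate 1), H2-Aa from -0.0198 to 0.148, Myh1 from -8.99 to 1.3 and Acta1 from -8.39 to 0.765, the last values of both being those without ozone replicate 2. At this depth and spread, differences under about 0.275 on the log2 scale lay within the interval of a typical gene.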
